A study of Rattus norvegicus with 8 samples.

Results

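The genes described here carry fatty acids into liver cells, activate them, move them into mitochondria or peroxisomes and oxidise them there, or turn the product into ketone bodies. The set lists 39 such genes by name, and 35 of them had a probe set annotated to that gene alone, out of 14506 genes named in this way on the array. Decr2, Acaa1a, Acot3 and Acot4 were covered by no such probe set and have no value here. The genes were sorted by role and main site of action. Of the 35, 19 were counted as mitochondrial, 5 as peroxisomal, 1 as a ketone body enzyme and 10 as other. The last class holds uptake, activation, cytosolic and regulatory genes, with Vnn1 and Ucp2. Bdh1, the ketone body enzyme, and Ucp2 also act in mitochondria but were not counted as mitochondrial.

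The study measured total RNA of isolated livers of male Wistar rats, an outbred strain, aged 6 to 10 weeks. The livers were perfused with Krebs-Henseleit buffer, a bicarbonate-buffered salt solution, at 305 mosm/L (normoosmotic, 4 arrays) or at 225 mosm/L (hypoosmotic, 4 arrays), and the arrays of both groups carry the time point of 120 min. Water enters cells when the surrounding buffer is dilute, and hepatocytes swell. An isolated perfused liver has no blood supply and no inflow from other organs, and the labels do not state whether the animals had been fed or whether the perfusate held fatty acid. The labels do not say whether each array stands for its own animal, so the p-values here rest on array-to-array spread, part of which may be technical.

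In the liver, long-chain fatty acids are bound by carrier proteins, joined to coenzyme A and passed into mitochondria by the carnitine shuttle, whose first enzyme sets the pace. Each turn of beta-oxidation then runs through a dehydrogenase, a hydratase, a second dehydrogenase and a thiolase, and the acetyl-CoA that is released can be made into ketone bodies. Peroxisomes shorten very long and branched chains. The nuclear receptor encoded by Ppara, which binds DNA together with a retinoid X receptor, is known to induce many of these genes in fasting.

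The transcripts of fatty acid oxidation differed little between the buffers. By limma, 0 of the 35 measured genes passed an adjusted p of 0.05, a threshold that 1.98% of the 14506 genes passed. At that share few or no calls would be looked for among 35 genes, so the count alone does not set them apart. At an unadjusted p under 0.05 there were 2 of 35, Acaa2 and Ucp2, or 5.71%, against 14.6% of all genes. The median log2 change, hypoosmotic minus normoosmotic, was 0.06 over the 35 and 0.04 over all genes, and the single changes lay between −0.35 for Cd36 and 0.47 for Acaa2.

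The data also bound how large a change could have been. The 95% interval of the log2 change lay within 1 unit of 0, that is within a doubling or halving, for all 35 genes, as it did for 97.7% of all genes. It lay within 0.5 units for 25 of them, or 71.4%, against 68.8% of all genes. The median size of the change, without its sign, was 0.09 log2 units in the set and 0.13 over all genes, while the median standard errors were alike at 0.12 and 0.13.

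**Figure D1:**
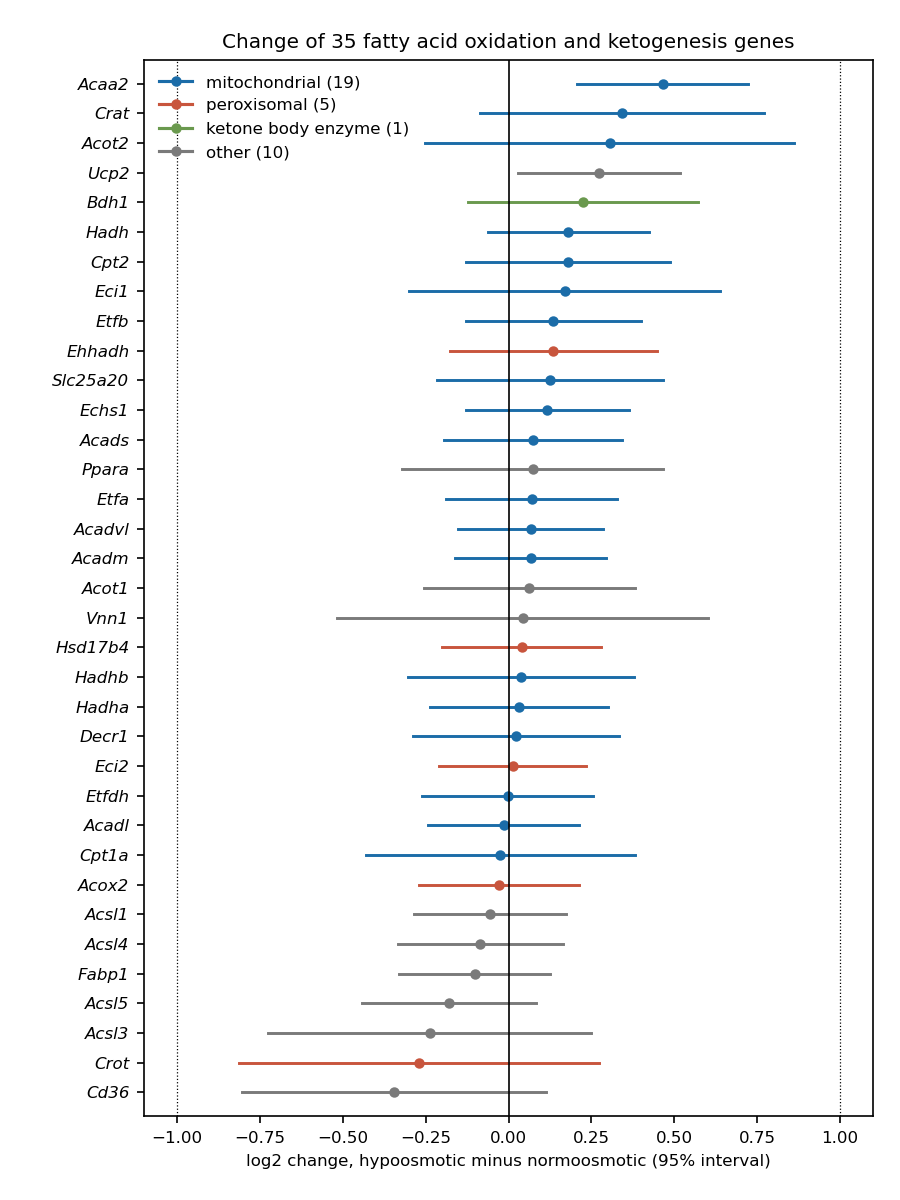
Log2 change of each of the 35 genes (hypoosmotic minus normoosmotic, 4 arrays each) with its 95% interval from limma, ordered by size and coloured by compartment. Dotted lines mark a change of 1 log2 unit, and no interval reaches them; the interval of Acaa2 runs from 0.21 to 0.72.

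Acaa2 had the largest change of the 35. It encodes a mitochondrial thiolase, an enzyme of the step that closes a turn of beta-oxidation by splitting off acetyl-CoA. Its log2 values (probe set 10802691) were 10.25, 10.04, 10.18 and 10.35 in normoosmotic arrays 1 to 4 and 10.78, 10.63, 10.46 and 10.81 in hypoosmotic arrays 1 to 4. Every hypoosmotic array lay above every normoosmotic one. This held for 1 of the 35 genes, or 2.86%, against 8.27% of all genes. The means were 10.21 ± 0.13 and 10.67 ± 0.16 (SD, n = 4 each), a ratio of 1.38 with a 95% interval of 1.15 to 1.65.

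The log2 change of Acaa2 was 0.47 with a standard error of 0.12, and it missed the threshold (limma, adjusted p = 0.0664). A two-sided exact permutation test over the 8 arrays gave p = 0.0286, the smallest that 4 against 4 allows. Every gene whose groups do not overlap gets this value, so it adds nothing to the lack of overlap. It is also not adjusted for the choice of Acaa2 as the largest change. The adjusted p was 0.0338 after quantile normalization of the arrays, 0.031 with a trended and robust prior and 0.0474 with array weights. Without each array in turn it lay between 0.0595 and 0.171, with changes from 0.41 to 0.54.

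The other enzymes of the mitochondrial spiral had smaller changes, none of which passed the test, and their difference from Acaa2 was not tested. The acyl-CoA dehydrogenases, which start each turn and are named for the chain lengths they take, had log2 changes of −0.02 for Acadl, 0.07 for Acadm, 0.07 for Acads and 0.07 for Acadvl, with adjusted p-values of 0.825 or more (limma). Their normoosmotic means were 9.68 ± 0.07, 9.37 ± 0.05, 6.43 ± 0.20 and 8.37 ± 0.07 (SD, n = 4 each). Brightness depends on the probes as well as on the transcript, so levels are not compared between genes. In Acadl, normoosmotic array 3 read 9.79 and the other normoosmotic arrays 9.65, 9.65 and 9.63, and the hypoosmotic values were 9.53, 9.76, 9.65 and 9.72. The spread of one group thus covered most of the other.

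Echs1, the short-chain hydratase of the next step, read 9.46, 9.44, 9.46 and 9.61 in normoosmotic arrays and 9.42, 9.71, 9.55 and 9.76 in hypoosmotic ones, and the groups overlapped (log2 change 0.12, adjusted p = 0.706, limma). Hadh, the dehydrogenase for medium and short chains, had a log2 change of 0.18 with a 95% interval of −0.06 to 0.42 (adjusted p = 0.521).

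Hadha and Hadhb encode the subunits of the mitochondrial trifunctional protein, which runs the last 3 steps on long chains. In the RefSeq annotation of the GRCr8 assembly they are divergent genes: their start sites on chromosome 6 lie 301 bases apart on opposite strands. The windows from 250 bases before to 50 bases after each start are shown because they share 200 bases, so the pair has a promoter region in common. The first 200 bases of each line are the reverse complement of the other's. Capitals mark AGGTCA on either strand, the hexamer that nuclear receptors of the Ppara kind bind in pairs. The windows are chr6:31907551-31907850 (+ strand) and chr6:31907451-31907750 (− strand), written 5′ to 3′.
Hadha: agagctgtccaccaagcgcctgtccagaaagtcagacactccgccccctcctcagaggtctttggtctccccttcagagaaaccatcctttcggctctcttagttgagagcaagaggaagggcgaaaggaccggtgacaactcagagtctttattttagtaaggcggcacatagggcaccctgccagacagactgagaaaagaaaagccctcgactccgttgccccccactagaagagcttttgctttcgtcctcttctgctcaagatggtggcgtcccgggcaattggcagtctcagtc
Hadhb: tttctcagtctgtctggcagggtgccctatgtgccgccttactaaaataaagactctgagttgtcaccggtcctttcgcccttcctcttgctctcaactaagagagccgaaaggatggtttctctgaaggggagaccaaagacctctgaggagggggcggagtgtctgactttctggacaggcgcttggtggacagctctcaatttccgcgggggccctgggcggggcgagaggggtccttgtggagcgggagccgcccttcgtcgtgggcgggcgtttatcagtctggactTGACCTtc

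The hexamer was not found in the Hadha window and was found once in that of Hadhb, at positions 43 to 48 counted from the start site and on the opposite strand. Hadha read 9.79, 9.35, 9.78 and 9.68 in normoosmotic arrays 1 to 4 and 9.60, 9.82, 9.61 and 9.70 in hypoosmotic arrays 1 to 4. Hadhb read 8.26, 7.66, 8.43 and 8.21 in normoosmotic arrays and 8.27, 8.25, 7.94 and 8.25 in hypoosmotic ones. Both were lowest in normoosmotic array 2, as were 22 of the 35 genes among normoosmotic arrays. In the hypoosmotic group their orders differed, with array 1 lowest for Hadha and array 3 for Hadhb. The log2 changes were 0.03 and 0.04, with 95% intervals of −0.24 to 0.30 and −0.30 to 0.38. A dimmer probe set of Hadha gave a change of 0.12.

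The carnitine shuttle genes had changes on both sides of 0, and none passed the test. Cpt1a, the pace-setting outer membrane transferase, read 9.65, 9.85, 10.52 and 9.64 in normoosmotic arrays and 9.77, 9.63, 10.01 and 10.15 in hypoosmotic ones. Its means were 9.92 ± 0.41 and 9.89 ± 0.23 (SD), a log2 change of −0.03 (95% interval −0.43 to 0.38; adjusted p = 0.973, limma). Cpt2, the inner membrane transferase, had a change of 0.18 (−0.13 to 0.49).

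Slc25a20 encodes the carrier that exchanges acylcarnitine for carnitine across the inner membrane. It read 8.31, 7.74, 8.33 and 8.34 in normoosmotic arrays and 8.13, 8.42, 8.11 and 8.56 in hypoosmotic ones (log2 change 0.13, adjusted p = 0.786, limma). Crat, which moves short acyl groups to carnitine, read 6.44, 5.50, 6.47 and 6.50 in normoosmotic arrays and 6.52, 6.38, 6.65 and 6.73 in hypoosmotic ones. Normoosmotic array 2 stood apart from the other normoosmotic arrays in both genes. The log2 change of Crat was 0.34 with a 95% interval of −0.08 to 0.77 (adjusted p = 0.481), and 0.10 without that array.

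The auxiliary enzymes deal with double bonds already present in unsaturated chains. Eci1, an isomerase of enoyl-CoA, read 7.06, 6.68, 8.03 and 7.14 in normoosmotic arrays and 7.40, 7.38, 7.47 and 7.34 in hypoosmotic ones. The normoosmotic values spanned 1.35 log2 units and the hypoosmotic ones 0.13, and the latter lay inside the former. Its log2 change was 0.17 (adjusted p = 0.789, limma), against 0.44 without normoosmotic array 3 (adjusted p = 0.187) and −0.01 without normoosmotic array 2. Decr1, a dienoyl-CoA reductase, had a change of 0.02 (−0.29 to 0.33).

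Etfa and Etfb, subunits of the flavoprotein that takes electrons from the acyl-CoA dehydrogenases, had log2 changes of 0.07 and 0.14. Etfdh, which hands those electrons on to ubiquinone, had one of −0.002, and all 3 intervals lay within 0.4 log2 units of 0. Acot2, a mitochondrial thioesterase that releases free fatty acid from acyl-CoA, had the widest range within a group of the set, 1.65 log2 units. It read 6.58, 5.90, 7.55 and 6.81 in normoosmotic arrays and 7.12, 7.16, 6.74 and 7.04 in hypoosmotic ones, so that a single group held both its lowest and its highest value. The log2 change was 0.31 (adjusted p = 0.661, limma), and it was 0.04 without normoosmotic array 2 and 0.59 without normoosmotic array 3.

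**Figure D2:**
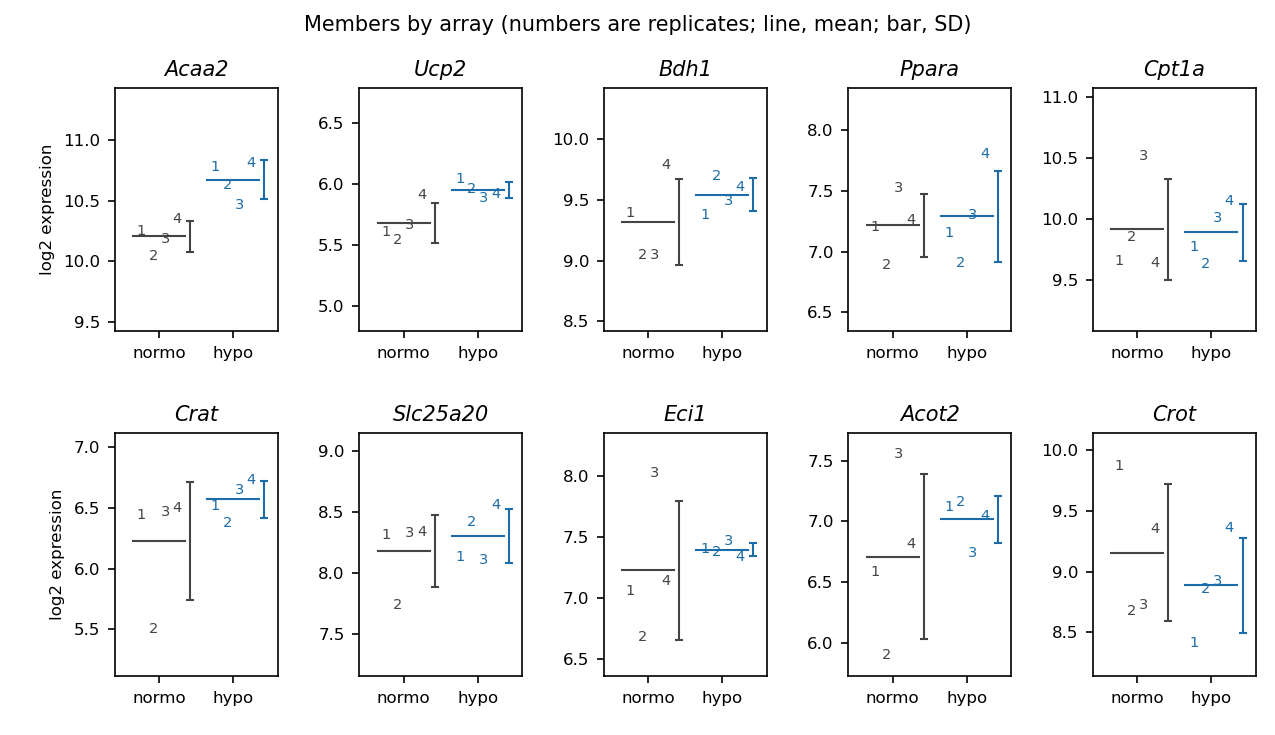
Log2 expression values of 10 of the genes in each array; the numbers are the replicate numbers, horizontal lines the group means and bars the SD of 4 arrays. Each panel has its own scale, spanning at least 2 log2 units. Only the groups of Acaa2 do not overlap, and the normoosmotic arrays 2 and 3 of Acot2 and Eci1 mark the ends of their range.

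Of the 19 mitochondrial genes 16, or 84.2%, had a log2 change above 0, where 58.6% of all genes and 48.8% of the 25% of genes with the brightest probe sets did, a class that holds all 19. Their median change was 0.08, against 0.04 and −0.01. For the 5 peroxisomal genes 3 changes were above 0 and the median was 0.01, while for the 10 other genes 4 were above 0 and the median was −0.07. After subtraction of array medians the mitochondrial median was 0.05, with 15 of 19 changes above 0, and the peroxisomal median was −0.02, with 2 of 5. The mitochondrial count rested in part on normoosmotic array 2: without it 11 of the 19 changes were above 0 and the median was 0.03. Without normoosmotic array 3 or 4 or hypoosmotic array 3 the median was 0.13 to 0.14. The peroxisomal median lay between −0.003 and 0.06 without single arrays. These medians are small beside the differences between arrays. The median deviation of the mitochondrial genes from their own means was −0.03, −0.21, 0.09 and −0.02 in normoosmotic arrays and 0.02, 0.13, −0.05 and 0.14 in hypoosmotic ones, and the groups overlapped. For the peroxisomal genes it was 0.06, −0.07, −0.02 and 0.04 against −0.03, 0.06, −0.12 and 0.09. No test was made on these medians.

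None of the peroxisomal enzymes passed the test. Acox2, an oxidase for branched chains and bile acid precursors, had a log2 change of −0.03 (95% interval −0.27 to 0.21). Hsd17b4, the multifunctional enzyme of that branch, had one of 0.04 (−0.20 to 0.28), and Eci2, an isomerase of peroxisomes and mitochondria, one of 0.01 (−0.21 to 0.24). Ehhadh, the bifunctional hydratase and dehydrogenase that Ppara induces in rodents, had one of 0.14 (−0.18 to 0.45, adjusted p = 0.742, limma). Residual SDs had a median of 0.12 in the peroxisomal genes, 0.16 in the mitochondrial ones and 0.19 over all genes.

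Crot, which hands medium-chain products of the peroxisome to carnitine, varied more than the other peroxisomal genes, with a residual SD of 0.48. It read 9.87, 8.68, 8.73 and 9.35 in normoosmotic arrays and 8.41, 8.86, 8.92 and 9.36 in hypoosmotic ones. Arrays of the same buffer differed by up to 1.19 log2 units, and the group means of 9.16 ± 0.56 and 8.89 ± 0.39 (SD) by 0.27 (adjusted p = 0.694, limma). The log2 change was −0.03 without normoosmotic array 1 and lay between −0.43 and −0.11 without each of the other arrays.

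Bdh1, the mitochondrial dehydrogenase that interconverts acetoacetate and beta-hydroxybutyrate, was the ketone body enzyme measured, and the earlier enzymes of ketogenesis are not analysed here. It read 9.39, 9.05, 9.05 and 9.79 in normoosmotic arrays and 9.38, 9.70, 9.49 and 9.61 in hypoosmotic ones. The highest single value was normoosmotic, and the groups overlapped. The means were 9.32 ± 0.35 and 9.55 ± 0.14 (SD), a log2 change of 0.23 (95% interval −0.12 to 0.57; adjusted p = 0.588, limma). Without single arrays the change ranged from 0.14 to 0.38.

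The acyl-CoA synthetases, which activate fatty acids by joining them to coenzyme A, had log2 changes below 0 in all 4 genes measured, and 0 of the 4 passed. They were −0.06 for Acsl1, −0.24 for Acsl3, −0.09 for Acsl4 and −0.18 for Acsl5, with adjusted p-values from 0.562 to 0.871 (limma). Acsl3, an isoform linked to lipid droplets, read 7.11, 7.24, 6.32 and 7.21 in normoosmotic arrays and 6.84, 7.24, 6.59 and 6.26 in hypoosmotic ones, and normoosmotic array 3 lay far below its group.

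Fabp1, the abundant fatty acid binding protein of the hepatocyte cytosol, had a log2 change of −0.10 with a 95% interval of −0.33 to 0.12 (adjusted p = 0.727, limma). Its promoter window is printed because it alone of the 31 windows found for the 35 genes held the paired hexamer searched for. The motif was AGGNCANAGGNCA on either strand, a direct repeat with 1 base between its copies, of the kind bound by Ppara with its partner receptor. It was present in 0.415% of the 33469 RefSeq promoter windows. The strict form AGGTCANAGGTCA was in 0 of the 31 and in 0.0538% of all windows, and the single hexamer AGGTCA in 7 of the 31, or 22.6%, against 16.2%. The repeat, in capitals, lies at positions −77 to −65 from the start site and reads on the opposite strand. The window is chr4:104749090-104749389 (GRCr8, + strand).
Fabp1: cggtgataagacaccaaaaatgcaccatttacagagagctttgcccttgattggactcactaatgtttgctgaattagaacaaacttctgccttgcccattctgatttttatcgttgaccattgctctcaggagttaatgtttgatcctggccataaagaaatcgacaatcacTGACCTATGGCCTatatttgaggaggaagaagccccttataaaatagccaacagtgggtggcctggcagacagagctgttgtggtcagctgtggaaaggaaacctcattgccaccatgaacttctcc

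A match of letters is a description of the sequence and not a measured binding site. Cd36, a fatty acid translocase of the plasma membrane, read 7.62, 7.01, 7.60 and 7.50 in normoosmotic arrays and 6.45, 7.58, 7.28 and 7.04 in hypoosmotic ones. Its log2 change of −0.35 was the lowest of the set, with a 95% interval of −0.80 to 0.11 (adjusted p = 0.514, limma), and hypoosmotic array 1 was the lowest of the 8. Without that array the change was −0.13 (adjusted p = 0.814, limma), which was smaller in size than the −0.27 of Acsl3 in the same fit. A dimmer probe set of Cd36 gave a change of −0.34.

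Ppara itself read 7.20, 6.89, 7.52 and 7.26 in normoosmotic arrays and 7.15, 6.91, 7.30 and 7.80 in hypoosmotic ones. The groups overlapped, with hypoosmotic array 4 above the other 7 arrays, and the log2 change was 0.07 (95% interval −0.32 to 0.47; adjusted p = 0.907, limma). Vnn1, a pantetheinase that breaks down a product of coenzyme A and is a known target of Ppara, had a change of 0.04 (−0.52 to 0.60), with arrays of the same buffer up to 1.18 log2 units apart. Acot1, the cytosolic thioesterase next to Acot2 on chromosome 6, had a dim probe set, at a mean of 1.89 in the lowest 25% of genes, so its change of 0.06 says little.

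Ucp2, a carrier of the mitochondrial inner membrane that is also found in macrophages, read 5.61, 5.54, 5.66 and 5.91 in normoosmotic arrays and 6.04, 5.96, 5.89 and 5.92 in hypoosmotic ones. The highest normoosmotic value just exceeded the lowest hypoosmotic one. The log2 change was 0.27 with a standard error of 0.11 (limma, p = 0.0318, adjusted p = 0.281), and the two-sided exact permutation p over the arrays was 0.0571. In whole liver, fewer cells of a type and less RNA per cell cannot be told apart. Of 8 measured macrophage markers 0 passed the test, with summed levels of 9.50 to 10.02 in normoosmotic and 9.56 to 10.25 in hypoosmotic arrays; their part in the value of Ucp2 was not tested. Endothelial markers, which bear on Cd36, summed to 10.08 to 10.60 and 10.25 to 10.58, with 0 of 5 called.

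Much of the variation in these genes was between arrays of the same buffer. Normoosmotic array 2 held the lowest normoosmotic value in 22 of the 35 genes, or 62.9%, against 27.1% of all genes and 40.5% of the 25% of genes with the brightest probe sets, to which all of the set but Ucp2, Vnn1 and Acot1 belong. Hypoosmotic array 3 was lowest of its group in 17 genes, or 48.6%, against 41.5% of those brightest genes. The median deviation over the set was −0.19 in normoosmotic array 2 and between −0.06 and 0.12 in the other 7 arrays. Hadha, Hadhb, Crat, Slc25a20, Acot2, Eci1 and Vnn1 were all lowest there among normoosmotic arrays, while Acsl3, Acsl5 and Fabp1 were highest there. Without that array 0 of the 35 genes were called, and the largest change was that of Cd36, at −0.49 (adjusted p = 0.322, limma).

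**Figure D3:**
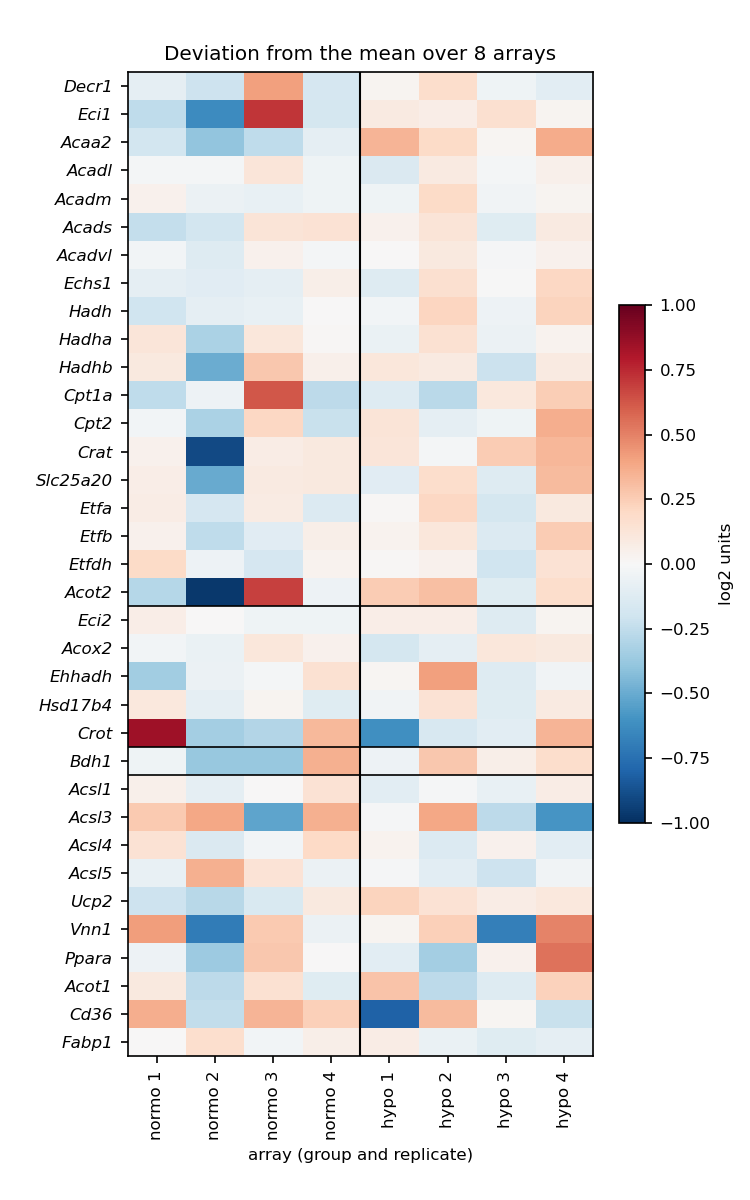
Deviation of each of the 35 genes from its own mean over the 8 arrays, in log2 units; rows are grouped as mitochondrial, peroxisomal, ketone body enzyme and other, from top to bottom, and columns are arrays. Blue cells gather in normoosmotic array 2, where the median deviation is −0.19, and only the row of Acaa2 changes colour cleanly between the buffers.

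Among genes around the core enzymes a minority passed the test. Of 70 further genes of fatty acid handling, ketone body transport and Ppara-linked control, 4 rose and 3 fell at an adjusted p under 0.05 (limma), where 0.558% of all genes rose and 1.42% fell. This wider list was chosen with earlier results of these data known, so nothing is read from its count against the share of all genes or against the core set. Angptl4, a known Ppara target that inhibits lipoprotein lipase, rose from 7.33, 7.57, 7.93 and 8.11 to values from 9.0 to 9.31, which is 2.72-fold (adjusted p = 0.00159). Slc16a1, a carrier that takes ketone bodies and lactate across the plasma membrane, rose from 8.08, 8.14, 7.90 and 8.02 to 8.51, 8.78, 8.38 and 8.80, a log2 change of 0.58 ± 0.12 (SE; adjusted p = 0.0312). Ppargc1b, a coactivator of mitochondrial genes, rose by 0.60 ± 0.11 (adjusted p = 0.0193). Txnip, a regulator of glucose uptake and redox state, rose by 0.87 ± 0.20 (adjusted p = 0.0432), although its groups overlapped.

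Pdk4, which holds back pyruvate oxidation when fatty acids are burned, fell from 10.05, 10.68, 10.55 and 11.07 to 9.56, 9.58, 9.85 and 9.88 (log2 change −0.87 ± 0.18, SE; adjusted p = 0.0282, limma). Lpin2, a phosphatidate phosphatase, fell by 0.80 ± 0.16 (adjusted p = 0.0228). Pparg, the receptor best known from fat cells, fell by 1.05 ± 0.22 (adjusted p = 0.0282) from a mean of 6.03. Angptl4 and Pdk4, both commonly used as readouts of Ppara, moved in opposite directions. Both are picked from the called genes, and other Ppara-linked genes of the wider list were not called. The activity of the Ppara receptor was not measured, and its part in these changes was not tested.

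The count of 7 was not steady. It was 2 without normoosmotic array 1, 4 without each of normoosmotic arrays 2, 3 and 4 and hypoosmotic array 3, and 1 without hypoosmotic array 1 or 2. With a clock gene score as a covariate, described further on, it was 2, Angptl4 and Pdk4. Angptl4 kept its call in all 16 refitted alternatives, Ppargc1b in 12, Lpin2, Pdk4 and Pparg in 10 each, Slc16a1 in 9 and Txnip in 8. Of the genes that missed the threshold, the desuccinylase gene Sirt5 had a log2 change of 0.34 (adjusted p = 0.131) and Fgf21, a hepatic hormone of fasting, one of −1.08 (adjusted p = 0.156). Fabp2, Fabp4, Lipe and the fatty acid hydroxylase gene Cyp4a3 had changes of 0.36, 0.38, 0.38 and 0.47, with adjusted p-values from 0.214 to 0.264.

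**Figure D4:**
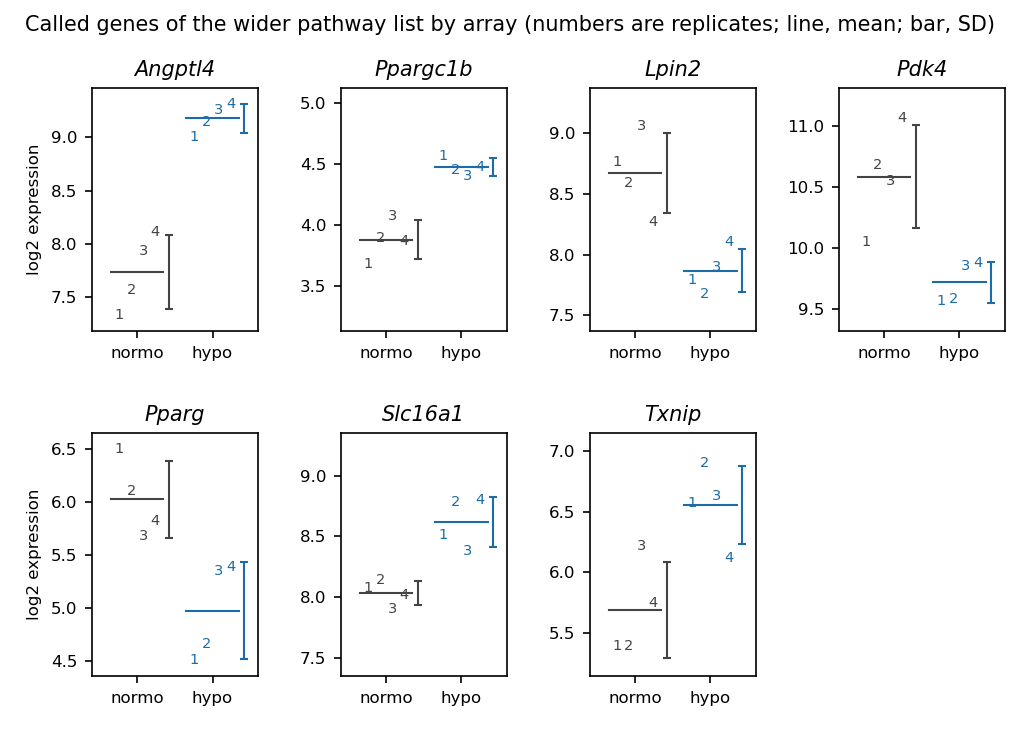
Log2 expression values in each array of the 7 called genes outside the core set; the numbers are the replicate numbers, lines the means and bars the SD of 4 arrays. Each panel has its own scale, spanning at least 2 log2 units. The groups are apart in 6 panels and overlap for Txnip.

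Over the whole table the array medians lay between 4.05 and 4.16, and no pair of arrays held identical values. Hepatocyte markers were bright, with Alb at means of 13.07 and 13.03, and 1 of 7 was called, Tat, lower in hypoosmotic arrays. Their summed level was 14.86 to 14.89 in normoosmotic and 14.71 to 14.85 in hypoosmotic arrays. Of the 40 markers of other cell types 0 were called, and the adipocyte hormone gene Adipoq was dim, at means of 2.67 and 2.69. Clock genes differed between arrays of one buffer: a score of Bmal1 and Npas2 minus Dbp and Per3 was −2.81, 1.27, −3.39 and 1.49 in normoosmotic and 1.38, 1.09, −0.52 and −0.06 in hypoosmotic arrays. With that score as a covariate Acaa2 had a log2 change of 0.45 (adjusted p = 0.169, limma) and 0 of the 35 genes were called.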

How the data were processed

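Per the labels' protocols, total RNA was isolated with Trizol and hybridised, after biotin labelling, to 1-colour Affymetrix arrays. The authors' deposited table holds log2 expression values for 27596 probe sets on 8 arrays. Transcriptome Analysis Console 4.0 is named in the submitters' processing notes; how probes were summarised and arrays normalized is not given in the sources used here. A log2 scale was read from the range of 0.88 to 13.26. Precision is limited by 4 arrays per group.

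Probe sets with exactly 1 symbol in the platform annotation (15310) were named, with symbols updated by gene ID through RefSeq GRCr8 (15279 matched). For several probe sets of a gene the one with the highest mean was taken, which gave 14506 genes, with no filter on low signal. Hypoosmotic and normoosmotic arrays were compared with limma 3.58.1 in R 4.3.3 (lmFit and eBayes, group as the only term), with Benjamini-Hochberg adjustment over the 14506 genes. The fit was checked on simulated data, with noise drawn independently for each gene and 200 changed genes in each of 20 runs. It called 0.522% of changes of 0.25 log2 units, 21.5% of those of 0.5 and 82.7% of those of 1. Changes of 0.5 log2 units or less were thus mostly missed. Promoter windows and their positions come from RefSeq, GRCr8.

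The genes, the wider list of 70, the compartments and the markers were chosen with earlier results of these data known. Values in each array are given for genes with an unadjusted p under 0.05, for Bdh1 and Ppara, for genes with an array standing apart in a group of 4 and for the 3 with the widest range in a group; Cd36, Cpt1a and Hadha were added after their values were seen. Of the wider list, the called genes and 6 more with the smallest p are named, and Acsl6 was added as a further synthetase gene. Alternatives were a filter on dim genes, other normalizations, priors and weights, a block by replicate number, averaging the probe sets of a gene, a clock covariate, another threshold and leaving out each array.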

Additional observations from a re-analysis of the deposited data

Results flagged for a closer look

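In 6 of 70 groups of 4 arrays, or 8.57%, 1 array stood apart from the other 3 by more of the range than Dixon's critical value, where 5.3% of the groups of all genes did and chance gives about 1 in 20. Crat read 5.50 and Slc25a20 read 7.74 in normoosmotic array 2, where the other normoosmotic arrays lay at 6.44 to 6.50 and at 8.31 to 8.34. Acadl read 9.79 in normoosmotic array 3, above 9.63 to 9.65 in the others. Acsl3 read 6.32 in that same array, below 7.11 to 7.24. Echs1 read 9.61 in normoosmotic array 4, above 9.44 to 9.46. Hadhb read 7.94 in hypoosmotic array 3, below 8.25 to 8.27. The shifts in Acadl and Echs1 were under 0.2 log2 units. Leaving out Acsl6, the 13 genes named from the wider list had 0 such groups of 26.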

How the results depend on the processing

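The count of 0 called genes in the set held in 13 of 16 refitted alternatives. It was 1, Acaa2, after quantile normalization, with array weights, with the trended and robust prior and at an adjusted p under 0.1, and 0 without any single array. The number with an unadjusted p under 0.05 was 2, and 1 to 4 without single arrays: 1 without normoosmotic array 1 or hypoosmotic array 1, and 4 without normoosmotic array 3, where Eci1, Acot2 and Acsl3 joined Acaa2. Of the wider list 7 genes were called, 2 with the clock score as a covariate and 1 to 6 without single arrays. With the replicate number as a block, 0 of the 35 and 5 of the wider list were called, and Acaa2 had an adjusted p of 0.0698 (limma). The labels do not describe same-numbered arrays as pairs, so the fit reported has no block. Deviations of same-numbered arrays from their group means correlated over genes at 0.03 to 0.17, and those of differently numbered arrays at −0.30 to 0.21. For 2 of 4 normoosmotic arrays the highest correlation was with the hypoosmotic array of the same number. These values cannot decide whether the arrays were paired. Pparg (adjusted p = 0.065) and Txnip (0.0529) lost the call under the block, and the cause was not tested. The median change of the mitochondrial genes was 0.03 to 0.14 in the alternatives run, and Bdh1 passed the test in none of them. Of 559 values of single genes under the alternatives 42 had the opposite sign, in 14 genes whose change was at most 0.17, none of them called. Acot1 lies among the dimmest 25% and has no value under that filter. All genes shifted by a median of 0.04 in the fit reported and by 0.01 after quantile normalization or subtraction of array medians. Dim probe sets compress differences.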
